A study of Homo sapiens with 6 samples.

Results

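The ERBB receptors are the 4 genes EGFR, ERBB2, ERBB3 and ERBB4, and they were taken by name from the 26334 gene symbols that the isoform tables list. Each RefSeq isoform of these symbols was included, which gave 14 of 51398 isoforms. RNA-Seq was performed on PC-9, an established human lung adenocarcinoma cell line whose EGFR gene carries an activating exon 19 deletion. The cells carried either a scrambled shRNA (shScr) or an shRNA against RBM10, an RNA-binding protein that regulates splicing, and the shRNAs against RBM10 are named shRBM10#1 and shRBM10#2. Each condition had 2 libraries, 6 in all. The study's methods give RPMI with 10% FBS for its cell lines and name no drug for the RNA-Seq. Both RBM10 knockdown (KD) conditions were compared with the same pair of shScr libraries. The labels call the controls shScr, as the study does elsewhere, while its methods name parental PC-9 cells. No source says whether the libraries of a condition came from separate cultures, so the p values measure the spread between libraries, which may be technical.

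EGFR, the ERBB family's founding member, binds EGF, TGF-alpha, amphiregulin and related ligands at the cell surface, pairs with another receptor and switches on its intracellular kinase domain. ERBB2 (HER2) has no known ligand of its own and acts as a partner of the other receptors. ERBB3 (HER3) binds neuregulins and has a weak kinase, so that it signals mainly through its partner, with PI3K recruited to its tail, and ERBB4 (HER4) binds neuregulins and has an active kinase. Lung adenocarcinomas with an activated EGFR depend on this signal and respond to EGFR kinase inhibitors, and more ERBB2 or ERBB3 signaling is a known route around such drugs. Splicing and early polyadenylation also give short forms of EGFR and ERBB3 that end before the membrane-spanning segment, so that they hold ligand-binding sequence and no kinase.

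RBM10 itself was lower in each KD library. Its gene total was 83.2 and 86.2 CPM (counts scaled to library size, with the TMM factors of edgeR) in shScr, 59.8 and 56.4 with shRBM10#1, and 27.2 and 26.9 with shRBM10#2. The log2 FC was -0.54 (edgeR FDR = 2.28e-04) with shRBM10#1 and -1.65 (edgeR FDR = 5.10e-08) with shRBM10#2. The KD was thus deeper with shRBM10#2 by a log2 FC of -1.11. Library totals ran from 31953729 to 37557507 expected counts, the counts that RSEM estimates by splitting shared reads among isoforms. The mean fragment length was 231 nt in shScr library 2 and between 265 and 281 nt in the other 5 libraries. Of 8 epithelial markers, 6 were above 1 TPM (RSEM's length-scaled level, which sums to the same total in each library) in every library, with a sum of 22790 to 28964 TPM. NKX2-1 and NAPSA, which mark the distal lung lineage, stayed below 1 TPM. Of the 5 fibroblast, 4 endothelial and 5 immune markers, 1, 2 and 1 passed 1 TPM, and PTPRC, DCN, LUM and PDGFRA were at or near 0. The immune marker past 1 TPM was CD68, a lysosomal protein also made by other cells, at 99.5 and 116 TPM in shScr and 76.8 to 81.7 in the KD libraries. Of the endothelial markers, CDH5 was at 4.65 and 6.16 TPM in shScr, 8.45 and 10.9 with shRBM10#1, and 6.08 and 5.64 with shRBM10#2, and the part of such differences in the receptor results was not tested.

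The full-length isoforms and their short forms differ at defined splice points. Full-length EGFR (NM_005228) codes for 1210 codons in 28 exons at chr7:55019101-55211628 (GRCh38 in GENCODE 29, plus strand). NM_201283 reads through the end of exon 10 (chr7:55156759-55156832), keeps the first 402 codons of the receptor and stops after 405. NM_201282 and NM_201284 leave the full-length form after exon 15 (chr7:55165280-55165437), share its first 626 codons and end in last exons of their own after 628 and 705 codons. Exons 16 to 28, which encode the membrane-spanning segment, the kinase domain and the tail, are absent from these 3 short forms, and so is exon 19 (chr7:55174722-55174820, 99 nt), where the deletion of this line lies. The sequences on both sides of each point are shown. They tell a read of a short form from a read of the spliced full-length form. Capitals mark the 15 bases after the point of divergence, on the reference sequence of GRCh38 and not on reads of this line.
EGFR NM_005228 at the end of exon 10: taaaggaaatcacagGGTTTTTGCTGATTC
EGFR NM_201283 at the end of exon 10: taaaggaaatcacagGTTTGAGCTGAATTA
EGFR NM_005228 after exon 15: aaactgcacctacggATGCACTGGGCCAGG
EGFR NM_201282 after exon 15: aaactgcacctacggGTCCTAATAAATCTT
EGFR NM_201284 after exon 15: aaactgcacctacggGCCAGGAAATGAGAG

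ERBB2 has the most isoforms of the family, and they differ mostly at the ends. NM_004448, the full-length form at chr17:39700080-39728662 (GRCh38, plus strand), codes for 1255 codons. NM_001005862 starts from 5 other 5′ exons, codes for 1225 codons and ends at the same stop, and NM_001289936 has 1 other first exon and 1240 codons. NM_001289937 skips exon 26 (chr17:39727295-39727547), shares 1053 codons and ends after 1055, within the tail that carries the phosphorylation sites. NM_001289938 ends after 603 codons, before the kinase. NR_110535 uses a later 5′ splice site of exon 2, which makes this exon 215 nt long (chr17:39706990-39707204) in place of 152 nt. It shares 75 codons, reads on into the added bases and stops after 90. GENCODE classes NR_110535 as a target of nonsense-mediated decay, the pathway that removes mRNAs with an early stop. ERBB3 has the full-length NM_001982 (chr12:56079861-56103505, GRCh38, plus strand, 1342 codons) and NM_001005915, which reads through the end of exon 3 (chr12:56084995-56085181), shares 140 codons and stops after 183. Both ERBB4 isoforms (NM_005235 and NM_001042599, chromosome 2) keep the kinase and differ by exon 26, of 48 nt. The sequences at the read-through points of ERBB2 and ERBB3 follow, since reads over these bases set NR_110535 and NM_001005915 apart from the spliced full-length forms. The added bases of both, and of EGFR NM_201283, run on from the exon into the next intron. Reads of unspliced RNA would hold the same bases and cannot be told apart from these isoforms there. Capitals again mark the 15 bases after the divergence.
ERBB2 NM_004448 after exon 2: ctgtccttcctgcagGATATCCAGGAGGTG
ERBB2 NR_110535 in the longer exon 2: ctgtccttcctgcagGTGAGGCCCGTGGGC
ERBB3 NM_001982 after exon 3: tgactcagctcaccgAGATTCTGTCAGGGG
ERBB3 NM_001005915 in the longer exon 3: tgactcagctcaccgGTCAGTTCCCGATGG

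**Figure D1:**
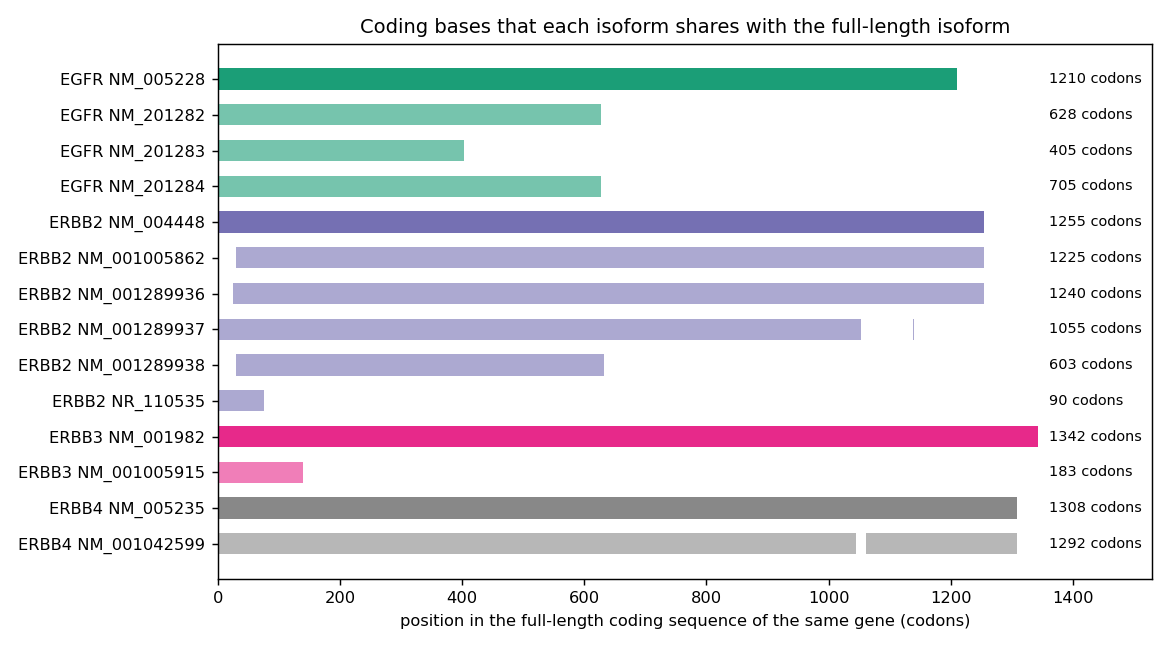
Each bar shows which coding bases of the full-length isoform an isoform shares, along the codons of the full-length form of the same gene (x axis), and the text at the right gives the isoform's own number of codons. The EGFR short forms stop at 402 or 626 shared codons of 1210, ERBB3 NM_001005915 at 140 of 1342 and ERBB2 NR_110535 at 75 of 1255.

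EGFR was the most abundant receptor transcript of the control cells. Its gene total, the sum over its isoforms, was 69.1 and 87.4 TPM in shScr, 66.3 and 52.4 with shRBM10#1, and 57.8 and 56.6 with shRBM10#2. ERBB2 was at 49.1 and 53.7 TPM in shScr, 59.4 and 63.2 with shRBM10#1, and 50.2 and 52.0 with shRBM10#2. ERBB3 was at 44.4 and 54.4 TPM in shScr, 52.8 and 53.9 with shRBM10#1, and 50.3 and 50.8 with shRBM10#2. On this scale the EGFR libraries of shScr lay above all 4 KD libraries, and the ERBB2 libraries of shRBM10#1 lay above all others. How many of all genes separated in such a way was not counted, here or for the separations given below. For ERBB3, the shScr libraries lay on both sides of all KD libraries, and the shRBM10#1 libraries lay above those of shRBM10#2. ERBB4 was listed at 0 TPM in each library.

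Within each condition the receptors were ordered by their levels per length. In shScr, EGFR (78.2 ± 13.0 TPM, SD, n = 2) stood above ERBB2 (51.4 ± 3.30) and ERBB3 (49.4 ± 7.08), and the last 2 did not differ beyond their spread. With shRBM10#1, ERBB2 (61.3 ± 2.70 TPM, SD, n = 2) and EGFR (59.3 ± 9.77) did not differ beyond their spread. ERBB3 (53.3 ± 0.75 TPM) lay below both ERBB2 libraries and above the lower of the EGFR libraries. With shRBM10#2, EGFR (57.2 ± 0.85 TPM, SD, n = 2) was again first in both libraries, and ERBB2 (51.1 ± 1.27) and ERBB3 (50.6 ± 0.38) did not differ beyond their spread. Among all genes above 0 TPM, EGFR ranked between 1748 and 2556, ERBB2 between 2154 and 2742 and ERBB3 between 2488 and 2932, of 16606 to 16929 genes.

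Taken within a library, the ratio of ERBB2 to EGFR was 0.710 and 0.614 in shScr, 0.897 and 1.21 with shRBM10#1, and 0.867 and 0.917 with shRBM10#2. The ratio of ERBB3 to EGFR was 0.643 and 0.623 in shScr, 0.797 and 1.03 with shRBM10#1, and 0.869 and 0.897 with shRBM10#2. Both ratios were thus higher in all 4 KD libraries than in either shScr library. EGFR made up 42.5% and 44.7% of the summed receptor TPM in shScr, 37.1% and 30.9% with shRBM10#1, and 36.5% and 35.5% with shRBM10#2. These ratios are a description without a test, and they do not depend on the scaling between libraries.

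**Figure D2:**
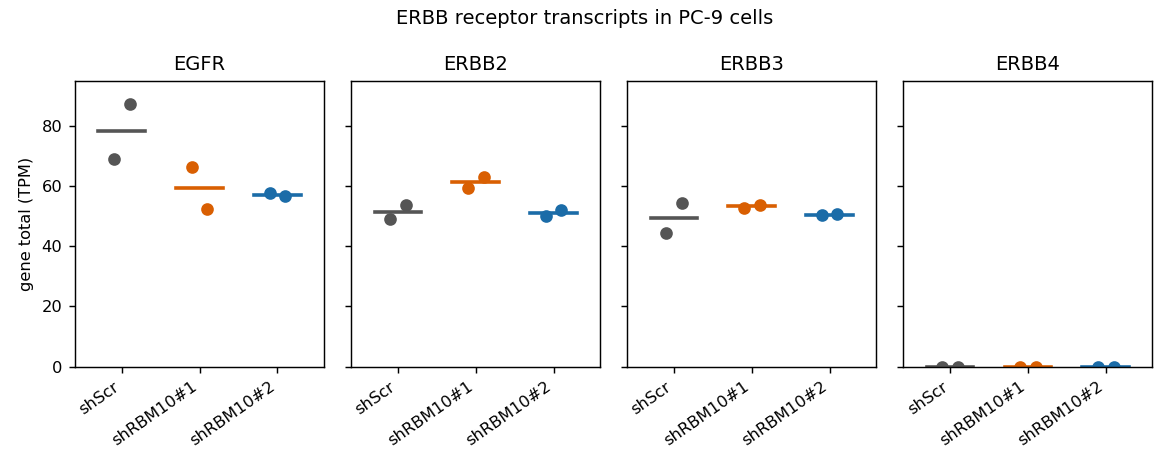
Gene totals in TPM (y axis) of the 4 receptors by condition (x axis), with a point per library and a line at the mean of 2 libraries. Both shScr libraries lie above the 4 KD libraries for EGFR, both shRBM10#1 libraries lie above the other 4 for ERBB2, and ERBB4 is at 0 TPM in all 6.

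EGFR was lower with each shRNA. In CPM, the gene total was 255 and 280.1 in shScr, 241 and 197 with shRBM10#1, and 208 and 202 with shRBM10#2, so that no KD library reached a shScr library. The log2 FC was -0.29 (SE 0.087, 95% CI -0.48 to -0.10, edgeR FDR = 0.0441) with shRBM10#1 and -0.38 (SE 0.087, 95% CI -0.57 to -0.19, edgeR FDR = 0.00758) with shRBM10#2. As a fold of shScr, EGFR was at 0.819 with shRBM10#1 and at 0.767 with shRBM10#2. Of all 14217 genes tested, 14.0% were called at an FDR below 0.05 with shRBM10#1 and 25.9% with shRBM10#2, so a call at this threshold was common in both comparisons. The call with shRBM10#1 was lost when a library was left out, with 1 exception. Without shScr library 1 the log2 FC was -0.35 (edgeR FDR = 0.0623), without shScr library 2 it was -0.22 (edgeR FDR = 0.261), and without shRBM10#1 library 2 it was -0.15 (edgeR FDR = 0.250). Without either shRBM10#2 library, which is not part of this contrast but of the shared estimate of the spread, it was -0.29 (edgeR FDR = 0.0843 and 0.0836). Only without shRBM10#1 library 1 was it kept, at -0.44 (edgeR FDR = 0.00152).

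The call with shRBM10#2 was lost without shScr library 2 (log2 FC -0.31, edgeR FDR = 0.0663), without shRBM10#2 library 1 (-0.40, edgeR FDR = 0.0556) and without shRBM10#2 library 2 (-0.36, edgeR FDR = 0.0917), and the direction held in each. The shScr library with the highest EGFR value was the one with the shorter fragments, and the part of fragment length in the result was not tested. Between the shRNAs, EGFR differed by a log2 FC of -0.09 (95% CI -0.28 to 0.10, edgeR FDR = 0.462), a comparison in which 25.5% of genes were called. Without shRBM10#1 library 2 this difference was -0.23 (edgeR FDR = 0.0347), and without shRBM10#1 library 1 it was 0.06. With the 4 KD libraries taken as 1 group, EGFR had a log2 FC of -0.33 (SE 0.097, edgeR FDR = 0.128), in a comparison that called 1.62% of genes. That pooled fit counts the difference between the shRNAs as spread, and RBM10 itself was not called in it (log2 FC -0.99, edgeR FDR = 0.146). When each condition kept its own coefficient, the mean KD effect on EGFR was -0.34 (edgeR FDR = 0.00855).

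ERBB2 was higher with shRBM10#1 only. Its gene total was 150.4 and 143 CPM in shScr, 179 and 197 with shRBM10#1, and 149.7 and 156 with shRBM10#2, so that the shRBM10#1 libraries stood above the other 4 and the shRBM10#2 libraries overlapped with shScr. The log2 FC was 0.36 (SE 0.068, 95% CI 0.21 to 0.50, edgeR FDR = 0.00395), or 1.28-fold, with shRBM10#1. It was 0.06 (SE 0.068, 95% CI -0.09 to 0.20, edgeR FDR = 0.590) with shRBM10#2. The difference between the shRNAs was itself called, with a log2 FC of -0.30 (SE 0.068, edgeR FDR = 0.00690) for shRBM10#2 against shRBM10#1. RBM10 was lower with shRBM10#2, the shRNA with the ERBB2 level near shScr, and KD depth and shRNA cannot be told apart here. The rise with shRBM10#1 kept its call without any 1 of the 6 libraries (log2 FC 0.29 to 0.42, edgeR FDR 8.85e-04 to 0.0441). The difference between the shRNAs was not called without shRBM10#2 library 1 (-0.27, edgeR FDR = 0.110) or library 2 (-0.32, edgeR FDR = 0.0740). Over the pooled KD libraries the log2 FC was 0.21 (edgeR FDR = 0.377).

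The ERBB2 locus overlaps genes of the opposite strand, and the strand protocol is not given in the sources used here, so that reads from overlapping stretches cannot be told apart. On GRCh38, PGAP3 (minus strand) overlaps ERBB2 at chr17:39687914-39696797, a stretch that spans the first 4 exons of NM_001005862 and of NM_001289938. MIEN1 (minus strand) overlaps ERBB2 at chr17:39728496-39730426 and meets the end of the last exon of NM_004448. PGAP3 was at 22.4 and 24.7 CPM in shScr, 24.0 and 30.0 with shRBM10#1, and 19.0 and 17.5 with shRBM10#2. PGAP3 had a log2 FC of 0.20 (edgeR FDR = 0.236) with shRBM10#1, -0.37 (edgeR FDR = 0.0249) with shRBM10#2 and -0.57 (edgeR FDR = 0.00264) between the shRNAs, the same sign as that of ERBB2 in the first and the last. Without single libraries the FDRs of the last 2 values reached 0.203 and 0.0518. MIEN1 was between 39.2 and 43.5 CPM in all libraries. The part of these neighbors in the ERBB2 counts was not tested. EGFR-AS1, which lies inside EGFR on the minus strand, had 4 to 8.02 expected counts per library against 7264 to 9220 for EGFR.

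ERBB3 rose slightly with shRBM10#1. Its gene total was 164 and 171 CPM in shScr, 187 and 204 with shRBM10#1, and 179 in both libraries with shRBM10#2, so that all KD libraries lay above shScr on this scale, though not on the TPM scale. The log2 FC was 0.22 (SE 0.065, 95% CI 0.08 to 0.36, edgeR FDR = 0.0409), or 1.17-fold, with shRBM10#1. It was 0.10 (SE 0.065, 95% CI -0.04 to 0.24, edgeR FDR = 0.301) with shRBM10#2. The difference between the shRNAs was -0.12 (95% CI -0.26 to 0.02, edgeR FDR = 0.188), so that a difference of effect was not shown, and the pooled log2 FC was 0.16 (edgeR FDR = 0.359). On GRCh38, the gene AC034102.2 (plus strand) overlaps ERBB3 at chr12:56101331-56103505, a stretch that holds the last exon of NM_001982. Reads of both could not be told apart there. The call with shRBM10#1 held without shRBM10#1 library 1 (log2 FC 0.28, edgeR FDR = 0.00942) and was lost without any other library. These 5 fits gave log2 FCs of 0.19 and 0.25 without shScr library 1 or 2, 0.16 without shRBM10#1 library 2, and 0.22 without either shRBM10#2 library, with edgeR FDRs between 0.0877 and 0.169.

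**Figure D3:**
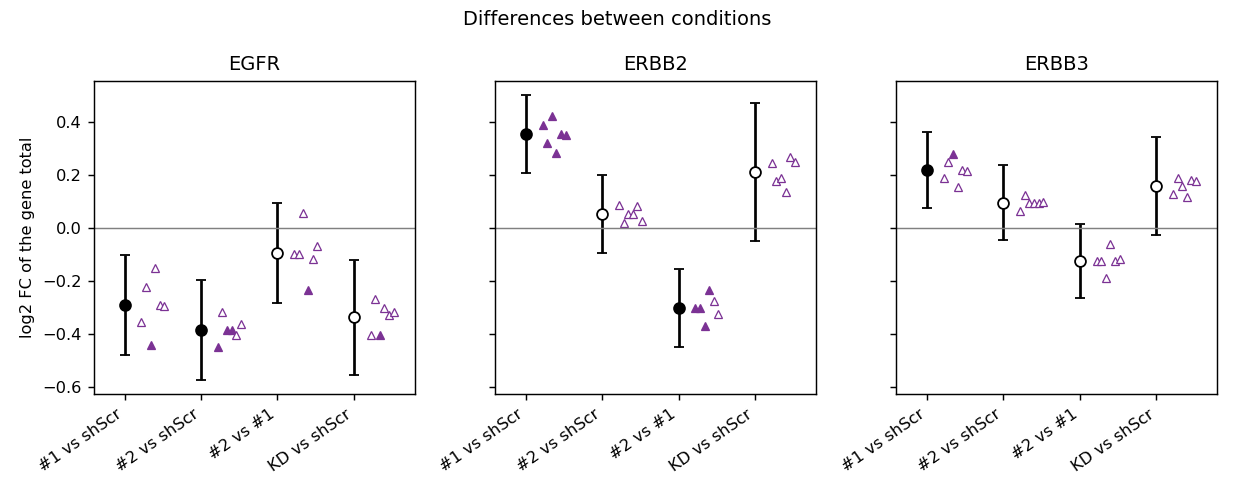
Log2 FC of the EGFR, ERBB2 and ERBB3 gene totals (y axis) in the 4 comparisons (x axis, where #1 and #2 are the shRNAs and KD pools them). Circles with bars show the estimate and its 95% CI, triangles show the 6 fits that each leave out a library, and filled symbols have an edgeR FDR below 0.05. The ERBB2 rise with shRBM10#1 is filled in all 6 such fits, against 1 of 6 for EGFR and 1 of 6 for ERBB3 with this shRNA.

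Of the 4 receptors, 3 passed the filter on low counts, and with shRBM10#1 all 3 were called, 2 higher and 1 lower. With shRBM10#2, 1 was called, EGFR, which was lower. By direction, 7.13% of genes were higher and 6.91% lower with shRBM10#1, and 12.0% were higher and 13.9% lower with shRBM10#2. No receptor met the study's added criterion of an absolute log2 FC above 1, which 1.88% of genes met with shRBM10#1, 1.30% with shRBM10#2, 1.19% between the shRNAs and 0.394% in the pooled comparison. As these are bulk libraries, fewer cells with a transcript and less of it per cell cannot be told apart. ERBB4 did not pass the filter, with an expected count of 0 in 5 libraries and of 1.00 in shRBM10#1 library 1. A count of 0 allows up to 0.0799 to 0.0914 CPM in those 5 libraries, taken as 3 counts of a library's total, and this limit covers counting error only.

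At the isoform level the full-length forms held nearly all EGFR and ERBB3 reads. NM_005228 of EGFR had 8245 and 9168 expected counts in shScr, 7522 and 7239 with shRBM10#1, and 7702 and 7689 with shRBM10#2, which was 99.2% to 99.7% of the EGFR counts. The log2 FC of this isoform was -0.29 (SE 0.11, edgeR FDR = 0.314) with shRBM10#1 and -0.38 (SE 0.11, edgeR FDR = 0.124) with shRBM10#2. These estimates equal those of the gene total to 2 decimals, and the isoform test, which was run over 26464 isoforms, did not call them. NM_004448 of ERBB2 had 4294 and 4089 expected counts in shScr, 5061 and 6636 with shRBM10#1, and 4656 and 5284 with shRBM10#2. NM_004448 had a log2 FC of 0.41 (SE 0.082, edgeR FDR = 0.127) with shRBM10#1, of 0.04 (edgeR FDR = 0.848) with shRBM10#2 and -0.37 (SE 0.082, edgeR FDR = 0.0845) between the shRNAs. NM_001982 of ERBB3 had 5288 and 5571 expected counts in shScr, 5777 and 7461 with shRBM10#1, and 6605 and 6796 with shRBM10#2. Its log2 FC was 0.22 (SE 0.061, edgeR FDR = 0.204) with shRBM10#1 and 0.10 (edgeR FDR = 0.420) with shRBM10#2.

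No receptor isoform, of the 11 that passed the filter, was called by edgeR in any of the 4 comparisons. At an unadjusted p below 0.05 there were 3 with shRBM10#1, 1 with shRBM10#2, 1 between the shRNAs and 1 in the pooled comparison, each a full-length form. Over all 26464 isoforms, 3832, 5699, 5377 and 2875 had such a p in these 4 comparisons. DESeq2 called NM_004448 and NM_001982 with shRBM10#1 (FDR = 4.63e-05 and 0.00840), NM_005228 with shRBM10#2 (FDR = 0.00325) and NM_004448 between the shRNAs (FDR = 1.62e-04), among 2416, 4597 and 4251 isoforms that it called in these comparisons. Over all isoforms edgeR called 0.0302% with shRBM10#1, 2.26% with shRBM10#2, 2.25% between the shRNAs and 0 in the pooled comparison, where DESeq2 called 818 isoforms. In the edgeR isoform test no isoform of RBM10 itself was called with shRBM10#1 (smallest FDR 0.119, NM_001204467) or in the pooled comparison (smallest FDR 0.369, NM_001204468). With shRBM10#2, NM_001204467 was called (edgeR FDR = 0.0272).

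The EGFR short forms were rare in all conditions. NM_201283 had 31.8 and 34.0 expected counts in shScr, 16.9 and 21.7 with shRBM10#1, and 18.5 and 47.6 with shRBM10#2. NM_201284 had 8.06 and 18.4 in shScr, 5.52 and 2.84 with shRBM10#1, and 15.8 and 13.2 with shRBM10#2. Both were lower in the shRBM10#1 libraries than in shScr, whereas the shRBM10#2 libraries overlapped with shScr. NM_201282 had a count of 0 in all libraries, which allows 0.0325% to 0.0413% of EGFR counts. Together the short forms held 0.483% of EGFR counts (95% Wilson interval 0.355% to 0.657%) in shScr library 1 and 0.564% (0.430% to 0.739%) in library 2. In the shRBM10#1 libraries they held 0.292% (0.193% to 0.441%) and 0.344% (0.233% to 0.508%). The shares were 0.440% (0.315% to 0.614%) and 0.787% (0.613% to 1.01%) in the shRBM10#2 libraries, which differed from each other by more than the shScr libraries did. Since RSEM divides the reads of shared exons by a model, these intervals cover counting error only. Per transcript, where length is taken into account, the full-length form made up 98.2% and 98.1% of EGFR TPM in shScr, 98.9% and 98.7% with shRBM10#1, and 98.6% and 97.2% with shRBM10#2.

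ERBB2 had the largest share of other isoforms. The isoforms other than NM_004448 held 12.1% of its counts (95% Wilson interval 11.2% to 13.0%) in shScr library 1 and 13.4% (12.4% to 14.4%) in library 2. In the shRBM10#1 libraries they held 9.61% (8.86% to 10.4%) and 8.51% (7.89% to 9.17%). The shares were 16.2% (15.3% to 17.2%) and 11.4% (10.6% to 12.2%) in the shRBM10#2 libraries. The shRBM10#1 libraries were thus below the other 4, and the shRBM10#2 libraries were on both sides of shScr. Most of these reads, in which the part of unspliced RNA was not tested, were assigned to NR_110535, the form with the longer exon 2. It had 429 and 383 expected counts in shScr, 310.1 and 480 with shRBM10#1, and 594 and 437 with shRBM10#2, or 8.78% and 8.13%, 5.54% and 6.61%, and 10.7% and 7.33% of ERBB2 counts. Its log2 FC was -0.12 (SE 0.22, edgeR FDR = 0.882) with shRBM10#1 and 0.14 (SE 0.22, edgeR FDR = 0.792) with shRBM10#2. NM_001005862, with the other 5′ exons, had 65.2 and 77.8 in shScr, 151 and 62.8 with shRBM10#1, and 248 and 154 with shRBM10#2. Its log2 FC was 0.57 (SE 0.55, edgeR FDR = 0.715) with shRBM10#1 and 1.29 (SE 0.55, 95% CI -0.10 to 2.69, edgeR FDR = 0.263) with shRBM10#2, and both shRBM10#2 libraries were above both shScr libraries. The other 3 ERBB2 isoforms had between 0 and 79.2 expected counts per library, and each overlapped between shScr and at least 1 KD condition.

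In ERBB3, NM_001005915 had 38 and 61.8 expected counts in shScr, 65.2 and 41.7 with shRBM10#1, and 54.5 and 73.0 with shRBM10#2, and the conditions overlapped. It held 0.560% to 1.11% of ERBB3 counts over the 6 libraries. Because this isoform is short, its part of ERBB3 TPM was larger, from 3.79% to 7.37%, with both ends of this range in shRBM10#1 libraries.

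**Figure D4:**
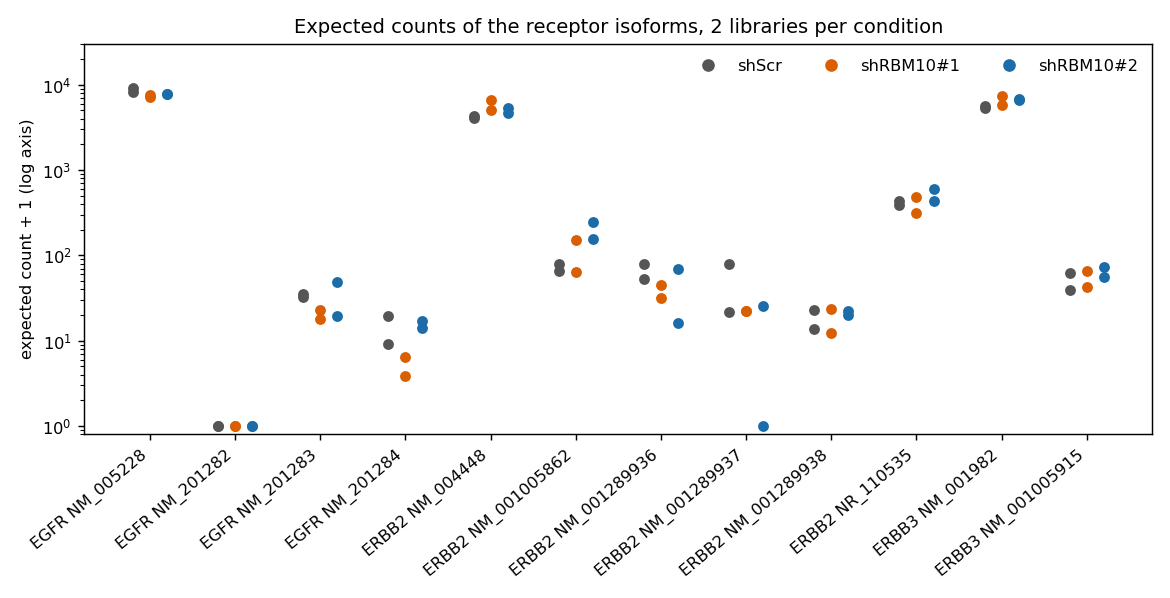
Expected counts plus 1 on a log axis (y axis) of the isoforms of EGFR, ERBB2 and ERBB3 (x axis), with a point for each of 2 libraries per condition. The full-length forms lie between 4089 and 9168, NR_110535 between 310.1 and 594 and NM_001005862 between 62.8 and 248, while the EGFR short forms stay at or below 47.6.

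Isoform usage was tested as well, which asks whether the isoforms of a gene changed by different factors. No receptor was called by edgeR in any comparison, among 6405 genes with at least 2 isoforms past the filter. The smallest Simes p, which combines the isoforms of a gene, was that of ERBB2: 0.484 with shRBM10#1, 0.302 with shRBM10#2, 0.386 between the shRNAs and 0.401 in the pooled comparison. The values of EGFR (0.832 to 0.995) and ERBB3 (0.987 to 0.997) were larger, so that 0 receptors had an unadjusted p below 0.05. The p of ERBB2 rested in part on shRBM10#2 library 1: without it the Simes p was 0.00535 with shRBM10#2 (edgeR FDR = 0.188) and 0.0336 between the shRNAs (edgeR FDR = 0.549). Over all genes, usage was called in 0.172% with shRBM10#1, 2.75% with shRBM10#2, 1.92% between the shRNAs and 0.515% in the pooled comparison. No receptor was called with limma's diffSplice either, where ERBB2 had a p of 0.0305 between the shRNAs (limma FDR = 0.186). Relative to the rest of ERBB2, NM_001005862 had a log2 FC of 1.23 with shRBM10#2 (unadjusted p = 0.0702), the smallest unadjusted p of a receptor isoform against shScr with either shRNA in the edgeR usage test.

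Genes that act with the receptors were examined through a list of 45, chosen with earlier results of these data known. Of these genes, 42 passed the filter. With shRBM10#1, 5 were higher and 5 lower at an edgeR FDR below 0.05, and with shRBM10#2, 6 were higher and 11 lower. Over all genes 14.0% were called with shRBM10#1 (7.13% higher and 6.91% lower) and 25.9% with shRBM10#2 (12.0% higher and 13.9% lower). Without single libraries these counts were 2 to 7 higher and 3 to 7 lower with shRBM10#1 (fewest without shScr library 2), and 3 to 9 higher and 2 to 12 lower with shRBM10#2 (fewest without shRBM10#2 library 1 or 2). The median log2 FC of the list was -0.01 and -0.05, against 0.01 for all genes in both comparisons. Both comparisons share the shScr libraries, and the genes called in the same direction with both shRNAs were HBEGF, TGFA, STAT3 and LRIG1. The share of all genes that met this rule was not counted, so these genes have no background to be set beside.

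Among the ligands, 8 of 11 were tested. HBEGF, a ligand of EGFR and ERBB4, was at 21.5 and 17.7 CPM in shScr, 4.16 and 3.56 with shRBM10#1, and 7.46 and 9.16 with shRBM10#2. The log2 FCs were -2.35 (edgeR FDR = 2.07e-06) and -1.23 (edgeR FDR = 1.25e-04), no KD library came near shScr, and both calls held without any 1 library. TGFA, an EGFR ligand, was at 39.1 and 40.6 CPM in shScr, 29.1 and 31.3 with shRBM10#1, and 35.4 and 33.2 with shRBM10#2. TGFA thus had log2 FCs of -0.40 (edgeR FDR = 0.00376) and -0.22 (edgeR FDR = 0.0482). The first call held without any 1 library, and the second was lost without shScr library 1 or 2 or shRBM10#2 library 1 or 2 (log2 FC -0.27 to -0.17, edgeR FDR 0.0847 to 0.359). The other ligand calls came with 1 shRNA each and are named because they were few, after their values were seen. AREG (amphiregulin, for EGFR) had a log2 FC of -1.17 (edgeR FDR = 0.00790) with shRBM10#1, or -0.90 (edgeR FDR = 0.0814) without shScr library 1, and the neuregulin gene NRG2 had 1.61 (edgeR FDR = 0.00203). With shRBM10#2 they had -0.50 (edgeR FDR = 0.136) and 0.33 (edgeR FDR = 0.454). EPGN (epigen, for EGFR) had a log2 FC of -1.33 (edgeR FDR = 0.0368) with shRBM10#2 and of -1.40 (edgeR FDR = 0.0508) with shRBM10#1, at under 1 CPM in all libraries, and the call with shRBM10#2 was lost without any library of shScr or shRBM10#2 (log2 FC -1.42 to -1.24, edgeR FDR 0.115 to 0.227). EGF and NRG1, for EGFR and for ERBB3 and ERBB4, had no call with either shRNA.

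Of the 12 negative regulators, LRIG1 stood out by size. LRIG1, a transmembrane protein that promotes degradation of ERBB receptors, was at 2.28 and 3.04 CPM in shScr, 12.8 and 18.6 with shRBM10#1, and 8.40 and 7.23 with shRBM10#2. The log2 FC was 2.56 (SE 0.20, edgeR FDR = 1.00e-05) and 1.55 (SE 0.21, edgeR FDR = 4.35e-04), the lowest KD library was above the highest shScr library, and both calls held without any 1 library. Besides LRIG1, the calls in this role were SPRY2 (log2 FC 0.66) and CBL (-0.34) with shRBM10#1, and CBLB (-0.39) with shRBM10#2, named after their values were seen. Each of these 3 was lost without at least 1 shScr library: SPRY2 without library 1 or 2 (log2 FC 0.64 and 0.68, edgeR FDR = 0.0517 and 0.0503), CBL without library 2 (-0.30, edgeR FDR = 0.122) and CBLB without library 1 (-0.33, edgeR FDR = 0.0551). CBL was also lost without shRBM10#1 library 2 (-0.23, edgeR FDR = 0.132) and CBLB without shRBM10#2 library 1 (-0.33, edgeR FDR = 0.103). SPRY2 restrains signaling below the receptors, and CBL and CBLB are ubiquitin ligases of activated EGFR. ERRFI1, which blocks the EGFR kinase, had log2 FCs of 0.16 and 0.16 without a call.

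Among the 12 adaptors and effectors, STAT3, a transcription factor activated downstream of EGFR, was at 98.6 and 103 CPM in shScr, 79.4 and 90.6 with shRBM10#1, and 81.2 and 77.8 with shRBM10#2. STAT3 had log2 FCs of -0.24 (edgeR FDR = 0.0449) and -0.34 (edgeR FDR = 0.00574). The first call held only without shRBM10#1 library 2, and without each of the other 5 libraries the log2 FC was -0.27 to -0.15 (edgeR FDR 0.0866 to 0.202). The second was lost only without shRBM10#2 library 2 (-0.31, edgeR FDR = 0.0996). GRB7, an ERBB2-binding adaptor encoded next to MIEN1 at the ERBB2 locus, was at 47.0 and 45.8 CPM in shScr, 54.3 and 57.6 with shRBM10#1, and 44.8 and 44.9 with shRBM10#2. GRB7 had a log2 FC of 0.27 (edgeR FDR = 0.0198) with shRBM10#1, which was called only without shRBM10#1 library 1 when a library was left out (edgeR FDR up to 0.0974 without the others), and of -0.05 (edgeR FDR = 0.633) with shRBM10#2. PIK3R2, a regulatory subunit of PI3K, had log2 FCs of 0.26 (edgeR FDR = 0.0154) and -0.20 (edgeR FDR = 0.0336), which are opposite in sign. The first call was lost without shScr library 2 or either shRBM10#2 library (edgeR FDR 0.0576 to 0.0852), and the second without any library of shScr or shRBM10#2 (edgeR FDR 0.0671 to 0.238). GRB7 and PIK3R2 are named after their values were seen, as are the shedding and trafficking genes. In total this role had 2 higher and 1 lower calls with shRBM10#1, and 3 higher and 4 lower with shRBM10#2, of 12 tested, beside 14.0% and 25.9% of all genes called. None of the 4 shedding genes, which release ligands from the membrane, was called with shRBM10#1, and 1, ADAM17 (log2 FC -0.22, edgeR FDR = 0.0488), was called with shRBM10#2, with a log2 FC of -0.24 (edgeR FDR = 0.0528) with shRBM10#1. The ADAM17 call was lost without shScr library 2 or either shRBM10#2 library (-0.28 to -0.13, edgeR FDR 0.128 to 0.360). None of the 6 trafficking genes, which sort internalized receptors, was called with shRBM10#1, and with shRBM10#2 EPS15 and STAM were higher and EPN1 and HGS lower, of which EPS15 alone was called without any 1 library.

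**Figure D5:**
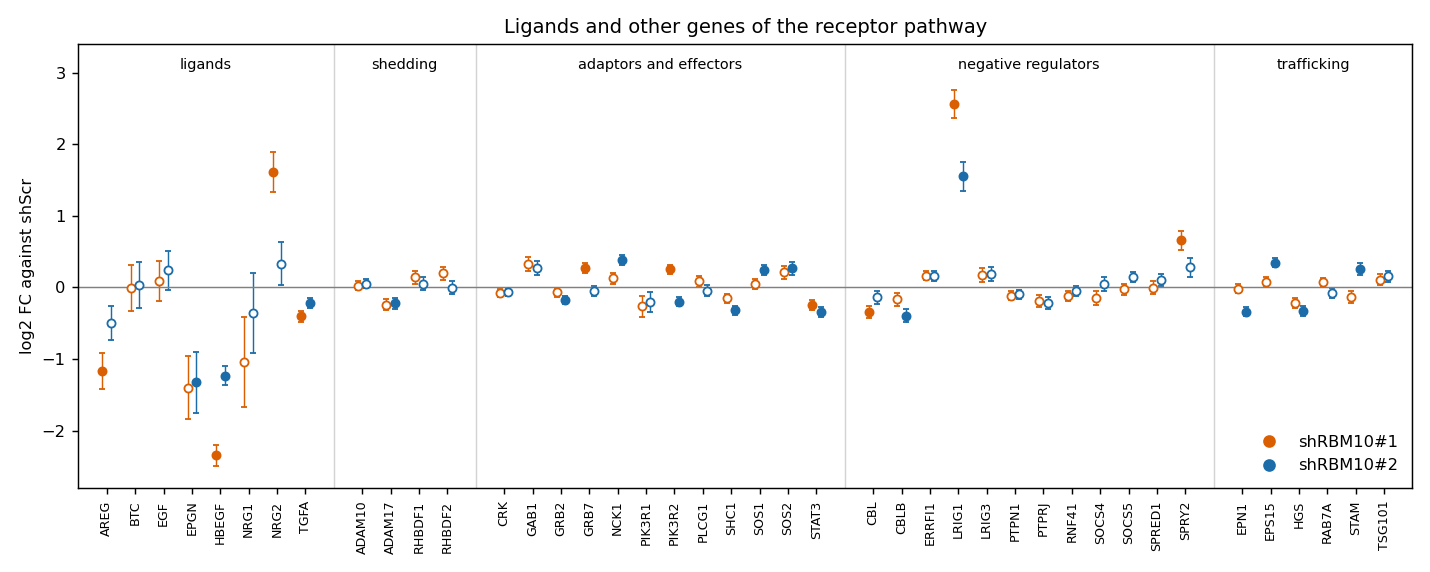
Log2 FC against shScr with its SE (y axis) of the 42 listed genes that passed the filter (x axis, by role), in orange for shRBM10#1 and in blue for shRBM10#2. Filled points have an edgeR FDR below 0.05, with LRIG1 at 2.56 and 1.55 and HBEGF at -2.35 and -1.23 called in opposite directions with both shRNAs.

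Among all 14217 genes, those most like each receptor over the 6 libraries were found by the root mean square difference of log2 CPM, each gene centered on its own mean. For EGFR, whose log2 CPM spanned 0.51, they were PHLDB2 (0.030), MTOR (0.031) and SLC36A1 (0.032). For ERBB2, with a span of 0.46, they were TRIM62 (0.022), JOSD2 (0.024) and CPNE2 (0.029). For ERBB3, with a span of 0.31, they were HTATSF1 (0.015), TMEM222 (0.015) and BBS9 (0.017). The 3 receptors shared none of these genes, which carries no weight for lists of 3 out of 14217 genes. How close other genes come to their own nearest matches was not computed.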

How the data were processed

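RNA-Seq of PC-9 cells was analyzed in 6 libraries, 2 per condition, grouped by the labels. The authors quantified RefSeq isoforms with RSEM 1.2.29 after STAR 2.4 on hg19, per the submitters' processing notes, and deposited expected counts per isoform. The authors also deposited TPM, FPKM (used for an alternative of the receptor ratios) and the percent of each isoform within its gene. The edgeR version and test of the authors, and whether counting used strand, are not given in the sources used here.

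Expected counts were summed per gene symbol and rounded. In R 4.3.3 they entered glmQLFit and glmQLFTest of edgeR 4.0.16 (TMM, filterByExpr by condition, 1 coefficient per condition over all 6 libraries), with Benjamini-Hochberg adjustment over all 14217 genes or 26464 isoforms. A call is an FDR below 0.05. For the pooled comparison the 4 KD libraries were 1 group. Isoform usage was tested with diffSpliceDGE and Simes p. CPM are TMM-scaled. All tests were two-sided. Fold changes are given for the 5 isoforms with a mean expected count of at least 100. DESeq2 1.42.0, limma 3.58.1 and SciPy 1.17.1 (Wilson intervals, 95%) were also used, and the procedures were tested on simulated data.

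Exons and sequences are those of GENCODE 29 (GRCh38), matched to all 14 isoforms by RefSeq identifier. The files hold no coordinates, and untranslated ends can differ in length between versions. Replicate numbers did not pair the libraries.

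The receptors, the pathway list, the markers and the naming rule were chosen with earlier results of these data known. By that rule, all receptor isoforms and RBM10 are named, as are pathway genes called in the same direction with both shRNAs (at most 3 per role) and the 3 genes most like each receptor. Alternatives were another normalization, filter, tool and call rule, the replicate block, fits on the 4 libraries compared, and each library left out in turn.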

Additional observations from a re-analysis of the deposited data

Results flagged for a closer look

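The ERBB2 gene total differed between the shRNAs by a log2 FC of -0.30 for shRBM10#2 against shRBM10#1 (edgeR FDR = 0.00690), and so did 3 other gene totals of the text. RBM10 itself differed by -1.11 (edgeR FDR = 3.65e-06), LRIG1 by -1.01 (edgeR FDR = 0.00140) and HBEGF by 1.11 (edgeR FDR = 5.18e-04). LRIG1 and HBEGF moved further from shScr with shRBM10#1, the shRNA with the weaker RBM10 KD. The depth of the KD and the shRNA used cannot be told apart, and the cause was not tested.

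Among the 4 KD libraries, shRBM10#2 library 2 stood apart for a pair of rare isoforms. Its EGFR NM_201283 value was the highest (1.26 CPM, against 0.486 to 0.597), with a gap of 0.855 of the whole range. Its ERBB2 NM_001289937 value was the lowest (0 CPM, against 0.570 to 0.675), with a gap of 0.845 of the range. Of 15 values examined in this way, chance flags about 1 in 20 if the 4 libraries are alike. They come from both shRNAs, so that this rate is a rough guide only.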

How the results depend on the processing

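Of 888 values recomputed under the alternatives, 787 stayed on the same side of their threshold, in the same direction or within their spread. These include results without a call that stayed without one. The receptor gene totals with a call had 13 alternatives each. With shRBM10#1 the call was kept in 6 for EGFR, 12 for ERBB2 and 5 for ERBB3. It was kept in 9 for EGFR with shRBM10#2 and in 10 for ERBB2 between the shRNAs. With edgeR, the number of receptors called was 3 with shRBM10#1, and it was 1 in the fit on the 4 libraries compared and 1 to 3 when a library was left out. With shRBM10#2 the 1 call became 0 to 1, between the shRNAs 0 to 2, and in the pooled comparison, with 0 calls, 0 to 1 in the same way. With an absolute log2 FC above 1 required, 0 receptors were called in each comparison. The pooled comparison gave 1 call with DESeq2 (EGFR) and 2 with a coefficient per condition (EGFR and ERBB2). DESeq2 called 2, 1 and 1 receptor isoforms with shRBM10#1, with shRBM10#2 and between the shRNAs, where edgeR called 0, and under the filter of 10 counts per library 1 (NM_004448) was called between the shRNAs. No alternative called a receptor for isoform usage.

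Left-out libraries turned the direction of uncalled differences. Between the shRNAs, the log2 FC of EGFR ran from -0.23 to 0.057 and that of its isoform NM_005228 from -0.23 to 0.056. In ERBB2, NM_004448 ran from -0.034 to 0.11 with shRBM10#2 and NM_001005862 from -0.35 to 1.14 with shRBM10#1. NR_110535 ran from -0.33 to 0.068 with shRBM10#1, -0.12 to 0.36 with shRBM10#2, -0.0082 to 0.48 between the shRNAs and -0.12 to 0.12 in the pooled comparison. The cause was not tested.

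Levels and shares moved with the unit. Per kilobase of the longest isoform, the ratio of ERBB2 to EGFR with shRBM10#2 was 0.846 in place of 0.892, and that of ERBB3 to EGFR was 0.610 in shScr and 0.850 with shRBM10#2 in place of 0.633 and 0.883. As a share of expected counts in place of TPM, the isoforms outside NM_005228 made up 0.525%, 0.317% and 0.614% of EGFR in shScr, shRBM10#1 and shRBM10#2 (1.81%, 1.18% and 2.09% by TPM), and those outside NM_001982 0.906%, 0.836% and 0.941% of ERBB3 (5.91%, 5.58% and 6.25% by TPM), since TPM divides by length.

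The replicate numbers did not pair the libraries (correlation of deviations -0.0638 to -0.0115), and with the replicate number as a block 2 receptors were called with shRBM10#1, ERBB3 losing its call at FDR = 0.0637. With this block 1755, 3209, 3175 and 52 gene totals were called with shRBM10#1, with shRBM10#2, between the shRNAs and in the pooled comparison, against 1996, 3685, 3628 and 230, and 0 isoforms in each, against 8, 597, 595 and 0. DESeq2 called 718 gene totals in the pooled comparison, and 2416, 4597, 4251 and 818 isoforms. A coefficient per condition gave 2610 pooled gene totals and 42 isoforms. Under the filter of 10 counts per library, edgeR called 380, 1647, 1403 and 18 isoforms. Leaving out a library gave 985 to 2626 gene totals with shRBM10#1, 954 to 4566 with shRBM10#2, 918 to 3736 between the shRNAs and 0 to 413 pooled. For isoform usage, limma called 42, 571, 339 and 41 genes against 11, 176, 123 and 33, the block left 4, 83, 48 and 13, and the other settings gave 5 to 39, 34 to 171, 27 to 114 and 9 to 43. Without 1 library, isoform calls were 0 to 1, 0 to 151, 0 to 2 and 0 to 2.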
